A study of Mus musculus with 13 samples.

Results

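The genes described are 10 crypt base Wnt target genes, Ascl2, Olfm4, Smoc2, Igfbp4, Tnfrsf19, Rgmb, Sp5, Axin2, Nkd1 and Cd44, chosen by name from genes known to mark the base of the intestinal crypt or to answer to Wnt signals there. They are 10 of 17097 genes measured. The choice was made with earlier results of these data known, so counts of them beside all genes are descriptive and no independent test. Each is given by 1 probe set that names only that gene, the one with the highest mean over 13 Affymetrix HT MG-430 PM arrays. All samples came from Lgr5-EGFP-ires-CreERT2 mice on a C57BL/6 background. In these mice the Lgr5 promoter drives GFP and a tamoxifen-dependent Cre, so all groups compared here carry the same allele. The 4 groups were GFPdim cells sorted from hair follicles of the skin (n = 3), GFPbright small intestinal stem cells (n = 4), GFPdim cells of the small intestine, the close descendants of the stem cells (n = 3), and cells of the small intestinal villus, the differentiated epithelium (n = 3). By the design text each sort combined 3 mice, and no age was given in the sources used here. The GFPbright and GFPdim groups, hair follicle included, are cells taken by the brightness of a reporter of Lgr5 itself. None of these groups is a pure cell type by that gate alone. The methods place RNA isolation after FACS for all 4 groups and name no gate for the villus cells. One label field names the opposite Lgr5 level to the title for GFPbright 4, GFPdim 2 and GFPdim 3, and a high level for the hair follicle and villus samples. The titles were used, and a fit without the 3 contradicted intestinal arrays was also run. That fit keeps GFPdim 1 as the only intestinal GFPdim array, so differences of single genes from it are given as sizes only. In the titles, hair follicle 2 carries the same code as GFPbright 2 and GFPdim 2. The titles do not say what this code stands for, and it was read here as the sort.

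In the small intestine, stem cells lie at the base of the crypt between Paneth cells and divide to give progenitors that move up to the villus. Wnt ligands at the crypt base bind Frizzled and Lrp receptors, which stops the destruction complex of Axin, Apc and Gsk3b from marking beta-catenin for decay, and beta-catenin then joins TCF/LEF factors at target genes. Lgr5 and its ligands, the R-spondins, strengthen that signal. Several targets are themselves brakes on the pathway. Lgr5 also marks stem cells in the hair follicle, where Wnt signals help start hair growth.

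The values are intensities on a linear scale, made comparable between arrays by the authors. They are relative to each probe set, so levels are compared between samples of a gene and never between genes. A background level of 7.55 was read as the 95th percentile of 86 probe sets of odorant, vomeronasal and taste receptors, and between 59.95% and 62.25% of genes lay above it on an array. The 75th percentile of intensity was 40.6 to 52.1 on 12 of the arrays and 37.6 in GFPdim 1. Lgr5, on whose reporter the GFPbright and GFPdim groups were sorted, had intensities of 478.8, 539.7 and 687.1 in hair follicle cells. It read 793.1, 576.5, 696.7 and 532.8 in GFPbright cells, 12.6, 66.1 and 14.0 in GFPdim cells and 6.8, 4.8 and 6.6 in the villus. GFPdim 2 thus held the most Lgr5 of the GFPdim arrays. Keratinocyte markers stood above background on every hair follicle array (7 of 7), and enterocyte markers on every villus array (5 of 5 measured). Of the 7 keratinocyte markers, Krt14, Col17a1, Cd34 and Trp63 were under background on all intestinal arrays. However, 2 were above it on every GFPbright and GFPdim array and 3 on every villus array. The 7 summed to 20703.9 to 25845.9 in hair follicle and 971.3 to 1080.3 in GFPbright cells. Their sums were 605.3 to 675.8 in GFPdim and 550.2 to 769.5 in villus cells. The sum of the 5 enterocyte markers was 27.7 to 29.9 in hair follicle cells, against 1296.4 to 2287.5 in GFPbright cells.

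**Figure D1:**
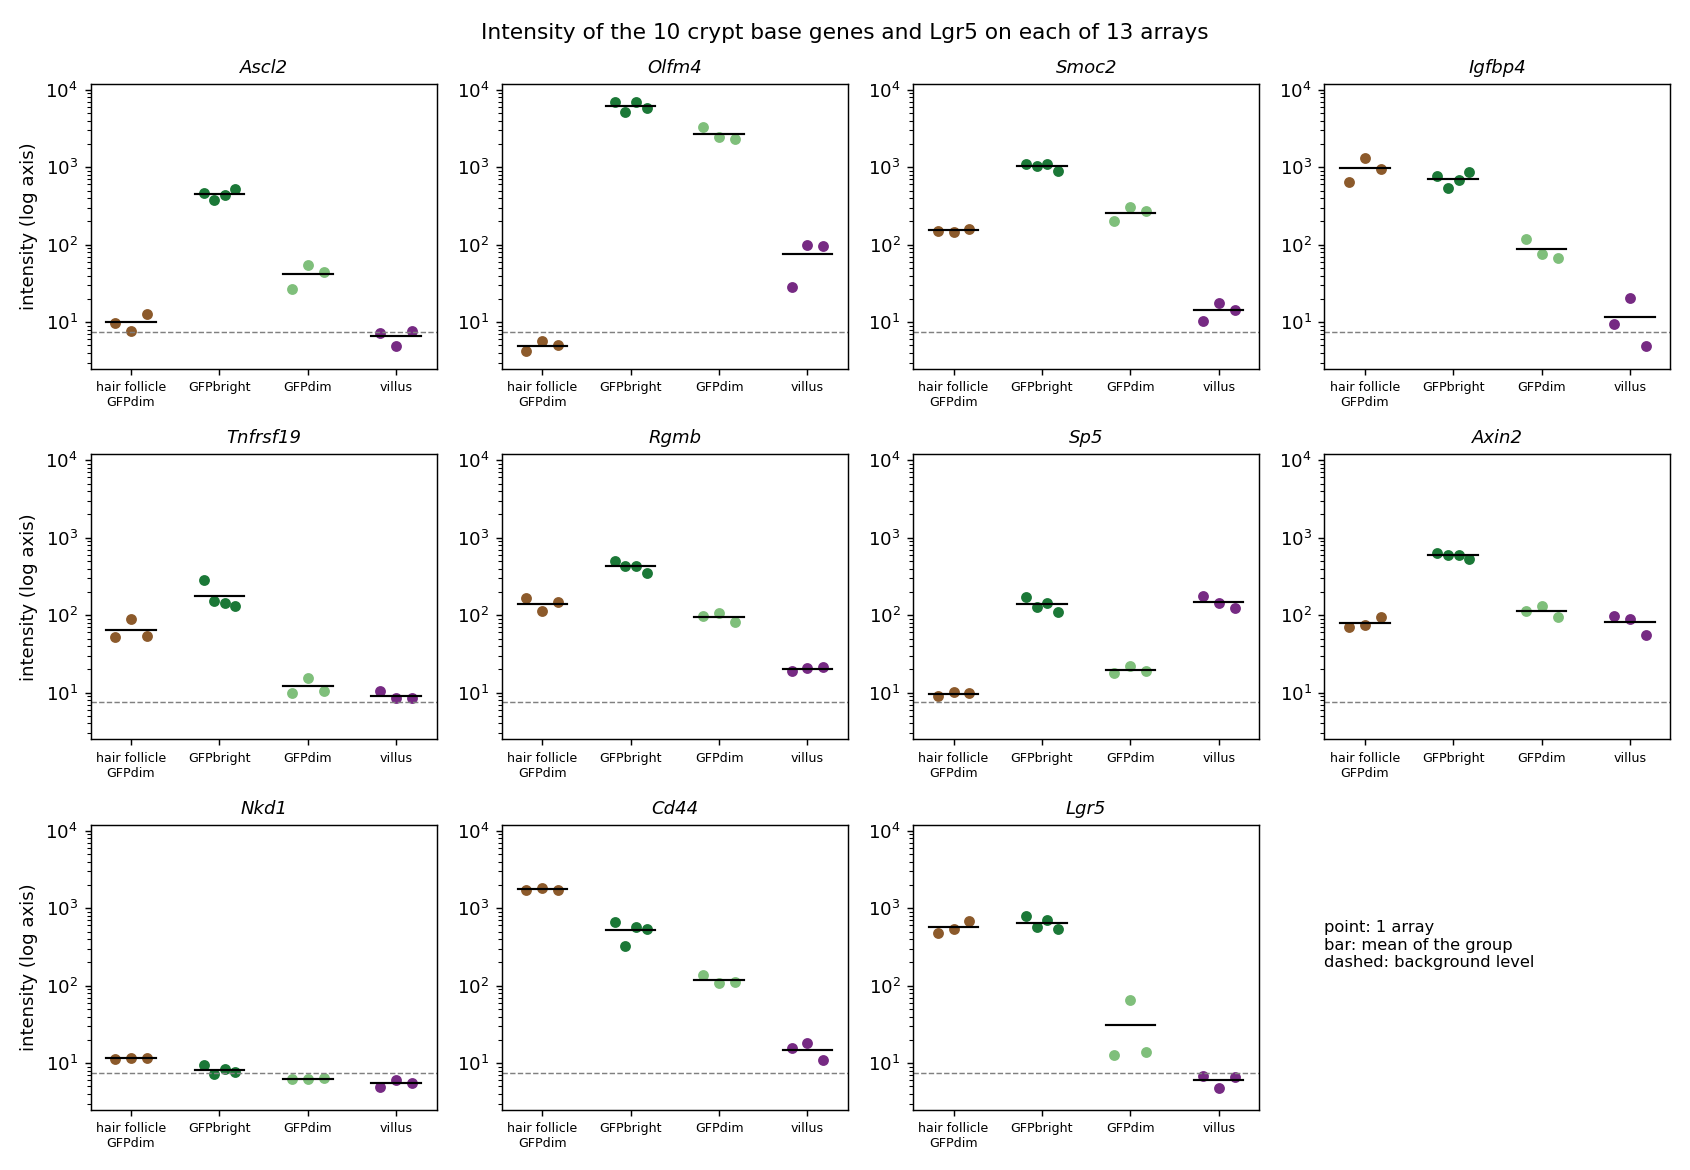
Intensity (log axis) of the 10 genes and of Lgr5 on each of the 13 arrays, by group, with 1 point per array, a bar at the mean of the group and the background level of 7.55 dashed. Every GFPdim array of the intestine lies below every GFPbright array for all 10 genes, as for 17.2% of all genes, and Nkd1 stays near background throughout.

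Going from GFPbright to GFPdim cells and on to the villus, the crypt base genes fell in different steps, and 1 of them came back. In GFPdim against GFPbright cells 9 of the 10 were lower and 0 were higher at a Benjamini-Hochberg adjusted p under 0.05 from limma, where 10.4% of all genes were lower and 6.32% higher. Their median log2 difference was -2.28, against -0.04 over all genes. Every GFPdim array lay below every GFPbright array for all 10, where this was so for 17.2% of all genes. The genes were chosen for the crypt base, so these shares of all genes are a description and no independent test. In the villus against GFPdim cells 6 were lower and 1 was higher, where 21.3% of all genes were lower and 20.8% higher, with a median of -2.42 against 0.02. In the villus against GFPbright cells 9 were lower and 0 higher, where 26.3% of all genes were lower and 22.6% higher, with a median of -4.75 against 0.02. These are bulk samples, in which fewer cells that express a gene and less RNA per cell cannot be told apart.

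Of the transcription factors, Ascl2, a basic helix-loop-helix factor needed for the intestinal stem cell state, had intensities of 470.8, 373.8, 441.5 and 524.6 in GFPbright cells, 26.4, 55.2 and 44.6 in GFPdim cells, and 7.3, 4.9 and 7.8 in the villus. The 3 groups did not overlap, and 2 of the 3 villus arrays were under background. Ascl2 fell by 3.48 on the log2 scale in GFPdim against GFPbright cells (SE 0.25, adjusted p = 5.21e-07, limma), an 11.2-fold difference, and fell by a further 2.62 in the villus against GFPdim cells (SE 0.27, adjusted p = 1.99e-06). Both other probe sets of Ascl2 were lower in each of these comparisons as well.

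Sp5, a zinc finger factor of the Sp family and a direct Wnt target in the mouse, took another course. Its intensities were 172.9, 128.8, 145.3 and 111.2 in GFPbright cells, 18.1, 22.3 and 19.1 in GFPdim cells, and 175.9, 144.9 and 122.6 in the villus. Every GFPdim array lay below every other intestinal array, while villus and GFPbright overlapped. Sp5 fell 6.97-fold in GFPdim against GFPbright cells (log2 difference -2.80, SE 0.16, adjusted p = 7.54e-08, limma) and rose 7.40-fold in the villus against GFPdim cells (2.89, SE 0.17, adjusted p = 1.20e-08). Between villus and GFPbright the log2 difference was 0.09, with a 95% interval of -0.26 to 0.44. Of all 17097 genes, 169 (0.988%) were lower in GFPdim than in GFPbright cells and higher in the villus than in GFPdim cells, and 3 of them changed by a log2 of 2 or more at both steps, namely Sp5, Ces1d and Tgtp1. Sp5 has a single probe set here, so no other reading of it was had.

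Axin2 and Nkd1 are brakes that Wnt signals switch on. Axin2, a scaffold of the destruction complex, had intensities of 628.2, 605.2, 604.6 and 526.3 in GFPbright cells, 114.0, 132.3 and 95.4 in GFPdim cells, and 96.4, 90.5 and 55.7 in the villus. GFPdim and villus overlapped, and both lay well under GFPbright. Axin2 fell by 2.39 on the log2 scale in GFPdim against GFPbright cells (SE 0.19, adjusted p = 1.29e-06, limma), and the difference of villus to GFPdim was -0.52 (SE 0.20, adjusted p = 0.0518). That last value passed the threshold without villus 1, villus 2, GFPdim 3 or hair follicle 3 in the fit. Its size without 1 array ran between -0.67 and -0.27. The other probe set of Axin2, above background on 6 arrays, gave -1.14 at the earlier step and 0.28 at the later one. Nkd1, which binds Dishevelled and dampens the signal, read 9.4, 7.2, 8.4 and 7.6 in GFPbright cells, 6.3, 6.2 and 6.5 in GFPdim cells and 4.9, 6.0 and 5.5 in the villus. All GFPdim and villus arrays were under background, so that the arrays hold little of this gene to compare. Its log2 difference was -0.36 in GFPdim against GFPbright cells (adjusted p = 0.0538, or 0.0333 with the sort as a random replicate block) and -0.57 in the villus against GFPbright cells (adjusted p = 0.000826), and the second call was lost in the mean of its 4 probe sets (-0.15, adjusted p = 0.253).

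Among the surface receptors, Tnfrsf19, also called Troy, a TNF receptor family member that sits with Lgr5 on mouse stem cells and dampens Wnt signals, had intensities of 284.4, 154.4, 143.6 and 130.1 in GFPbright cells, 10, 15.6 and 10.6 in GFPdim cells, and 10.5, 8.5 and 8.5 in the villus. GFPbright 1 was the highest by far, and GFPdim and villus overlapped just above background, between 8.5 and 15.6, so that little of a later fall could be measured. Tnfrsf19 was 14.3-fold lower in GFPdim than in GFPbright cells (log2 difference -3.84, SE 0.27, adjusted p = 3.87e-07, limma). The villus minus GFPdim log2 difference was -0.37, with a 95% interval of -0.99 to 0.24 (adjusted p = 0.337).

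Rgmb, a membrane-anchored co-receptor for bone morphogenetic proteins, had intensities of 503.0, 425.8, 431.2 and 352.7 in GFPbright cells, 98.2, 106.8 and 80.8 in GFPdim cells, and 19.1, 20.9 and 21.2 in the villus, with no overlap between groups. It fell by 2.17 on the log2 scale at the earlier step (SE 0.16, adjusted p = 6.49e-07, limma). At the later one it fell by 2.22 (SE 0.17, adjusted p = 1.20e-07). Its 3 other probe sets gave only -0.97 to -0.30 at the later step, where 2 of them passed the test. Cd44, the receptor for hyaluronan and a Wnt target that many cell types carry, had intensities of 656.5, 329.4, 567.8 and 535.2 in GFPbright cells, 138.5, 109.5 and 111.0 in GFPdim cells, and 15.7, 18.1 and 10.9 in the villus. Again the groups did not overlap. Cd44 was 4.26-fold lower in GFPdim than in GFPbright cells (log2 difference -2.09, SE 0.22, adjusted p = 1.97e-05). In the villus it was 8.16-fold lower than in GFPdim cells (-3.03, SE 0.23, adjusted p = 1.33e-07). Its 2 other detected probe sets gave -2.886 and -0.935 at this later step, and both passed the test. Leukocytes carry Cd44 too, and the summed intensity of 7 leukocyte markers was 59.8 to 652.0 in GFPbright cells, 46.1 to 399.3 in GFPdim cells and 955.6 to 1467.4 in the villus. Their part in the Cd44 level was not tested.

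The 3 secreted products had log2 differences of -6.56 to -6.16 in the villus against GFPbright cells, beside -6.10 for Ascl2. Olfm4, a glycoprotein made in bulk by crypt base columnar cells, had intensities of 6924.1, 5182.7, 6902.3 and 5886.7 in GFPbright cells, 3352.0, 2480.9 and 2298.4 in GFPdim cells, and 28.7, 100.5 and 96.9 in the villus. The groups did not overlap, yet GFPdim cells kept a large part of the signal. Olfm4 was 2.31-fold lower in GFPdim than in GFPbright cells (log2 difference -1.21, SE 0.34, adjusted p = 0.0264, limma) and 40.9-fold lower in the villus than in GFPdim cells (-5.35, SE 0.37, adjusted p = 3.94e-08). The earlier difference ran between -1.37 and -1.10 without 1 array. Its adjusted p was 0.00141 with only the groups compared in the fit and 0.000308 without villus 1. The call was lost without GFPbright 1, 3 or 4 or GFPdim 2 or 3 (adjusted p between 0.0513 and 0.0971). Without the 3 arrays with contradicted labels, which leaves only GFPdim 1 in its group, the difference was -0.91.

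Smoc2, a secreted calcium-binding matrix protein related to SPARC, had intensities of 1109.4, 1030.1, 1106.6 and 900.3 in GFPbright cells, 204.4, 302.1 and 269.1 in GFPdim cells, and 10.4, 17.9 and 14.4 in the villus. No groups overlapped. It fell by 2.02 on the log2 scale at the earlier step (SE 0.18, adjusted p = 3.54e-06, limma) and fell by 4.20 at the later one (SE 0.19, adjusted p = 8.24e-10). Igfbp4, which binds insulin-like growth factors, had intensities of 764.8, 546.7, 685.1 and 859.0 in GFPbright cells, 118.4, 75.3 and 66.8 in GFPdim cells, and 9.4, 20.8 and 4.9 in the villus. Its groups were apart as well, but the villus arrays spread widely and 1 of them was under background. Igfbp4 fell by 3.07 at the earlier step (SE 0.39, adjusted p = 0.000108) and fell by 3.09 at the later one (SE 0.42, adjusted p = 2.96e-05). The sizes depended on the probe set, since the 5 others of Igfbp4 gave log2 differences of -5.75 to -1.25 for villus minus GFPbright and of -2.44 to -0.19 at the later step, where 4 of the 5 passed the test.

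Whether a gene fell more at the earlier step, GFPbright to GFPdim, or at the later step, GFPdim to villus, was tested as the difference of both log2 changes within the same fit. Of the 10 genes, 2 had a more negative later step and 3 a more negative earlier step, where 11.2% of all genes were lower and 12.3% higher in this comparison. Olfm4 and Smoc2 fell more at the later step, by a log2 of -4.15 (SE 0.62, adjusted p = 0.000245, limma) and -2.18 (SE 0.32, adjusted p = 0.000227). Tnfrsf19 and Axin2 fell more at the earlier step, with differences of 3.46 (SE 0.48, adjusted p = 0.000142) and 1.86 (SE 0.34, adjusted p = 0.0012). Sp5 fell at the earlier step and rose at the later one, a difference of 5.69 (SE 0.29, adjusted p = 2.90e-08). Tnfrsf19 was close to background after the earlier step, which bounds its later one. For Ascl2 (0.86), Cd44 (-0.94), Igfbp4 (-0.03), Rgmb (-0.05) and Nkd1 (0.14) the steps did not pass the test as different.

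**Figure D2:**
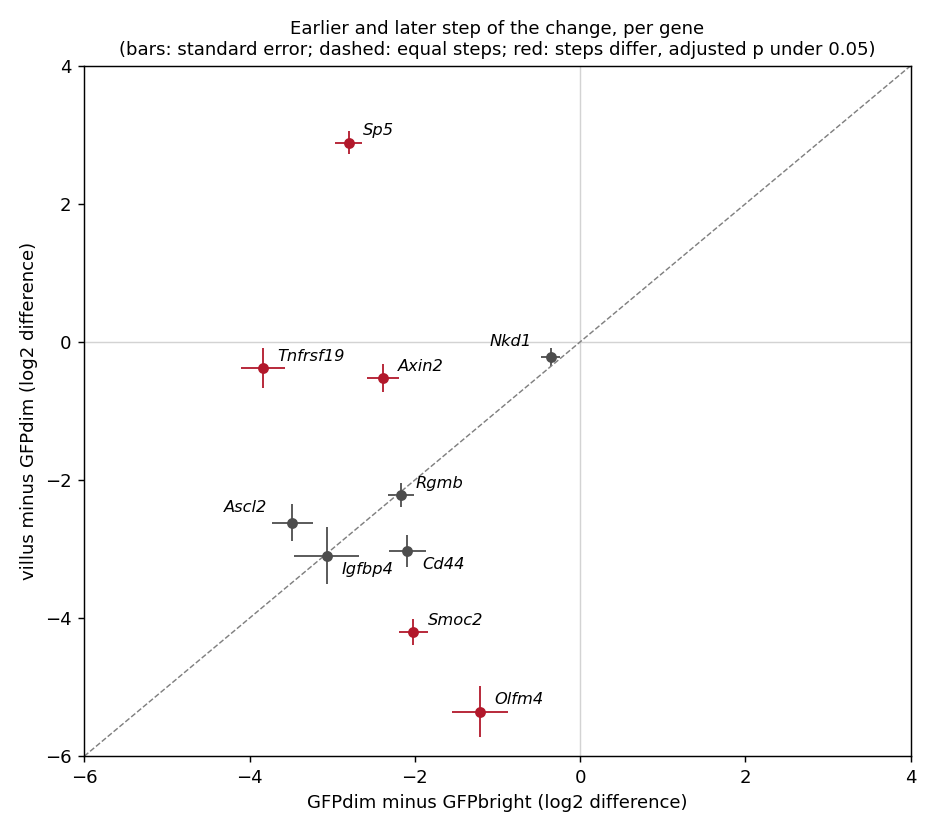
Log2 difference of GFPdim minus GFPbright (horizontal axis) against that of villus minus GFPdim (vertical axis) for the 10 genes, with standard errors as bars and a dashed line of equal steps. Olfm4 (-1.21 and -5.35) and Smoc2 (-2.02 and -4.20) lie below the line, Tnfrsf19 (-3.84 and -0.37) and Axin2 (-2.39 and -0.52) above it, and Sp5 (-2.80 and 2.89) alone has a positive later step.

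The ordering of the steps held on other probe sets for some genes and not for others. The 10 genes have 30 probe sets, and of the 20 others 16 were above background on at least 3 arrays. In GFPdim against GFPbright cells 15 of these 16 were lower, with log2 differences of -3.67 to -0.38, and the exception was a probe set of Nkd1. The second probe set of Smoc2 also had the larger later step (-1.16, adjusted p = 0.0301), and those of Axin2 (1.42, adjusted p = 0.00676) and Tnfrsf19 (1.48, adjusted p = 0.0054) the larger earlier one. For Rgmb, however, all 3 other probe sets had a smaller fall at the later step (differences of 1.07 to 2.0), and in the mean of its 4 probe sets the earlier step was the larger (1.17, adjusted p = 0.00317). Igfbp4 showed the same in 2 of its 5 others (range over the 5 from 0.87 to 1.83). The 2 others of Cd44 gave -0.82 and 1.05, neither of which passed the test. Ascl2 passed as larger at the earlier step in the mean of its 3 probe sets (0.95, adjusted p = 0.0193). With 16 added to each intensity it passed as well (1.71, adjusted p = 0.0017). Without the 3 arrays with contradicted labels, which leaves only GFPdim 1 in its group, the difference of steps was 2.0 for Ascl2 and -1.48 for Smoc2.

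Expressed as a share of the whole log2 change between GFPbright and villus, the earlier step made up 18.4% ± 4.88 (SE) for Olfm4, 32.5% ± 2.61 for Smoc2 and 40.8% ± 3.88 for Cd44. Rgmb (49.4% ± 3.28), Igfbp4 (49.8% ± 5.76) and Ascl2 (57.05% ± 3.75) were near the middle. Axin2 had reached 82.0% ± 6.38 of its fall by the GFPdim stage, and Tnfrsf19, near background from there on, 91.1% ± 6.49. Over all 4493 genes that were lower in the villus than in GFPbright cells the median share was 28.9%, with quartiles of 14.4% and 50.9%. Of the 8 crypt base genes with a share, 7 were above that median and 3 above the upper quartile, namely Ascl2, Axin2 and Tnfrsf19. Over the 1376 of these genes with a log2 difference of -2 or less, the median was 21.7% and the quartiles 14.2% and 33.4%, and 6 of the 8 were above the upper one (all but Olfm4 and Smoc2). The shares moved with the processing. In the mean of probe sets Rgmb had 67.7% and Igfbp4 63.8%, and without the 3 arrays with contradicted labels Ascl2 had 66.6%, Smoc2 38.3%, Igfbp4 40.9% and Cd44 36.2%. Nkd1 is left out because it was under background at both later stages, and Sp5 because its whole change was near 0.

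**Figure D3:**
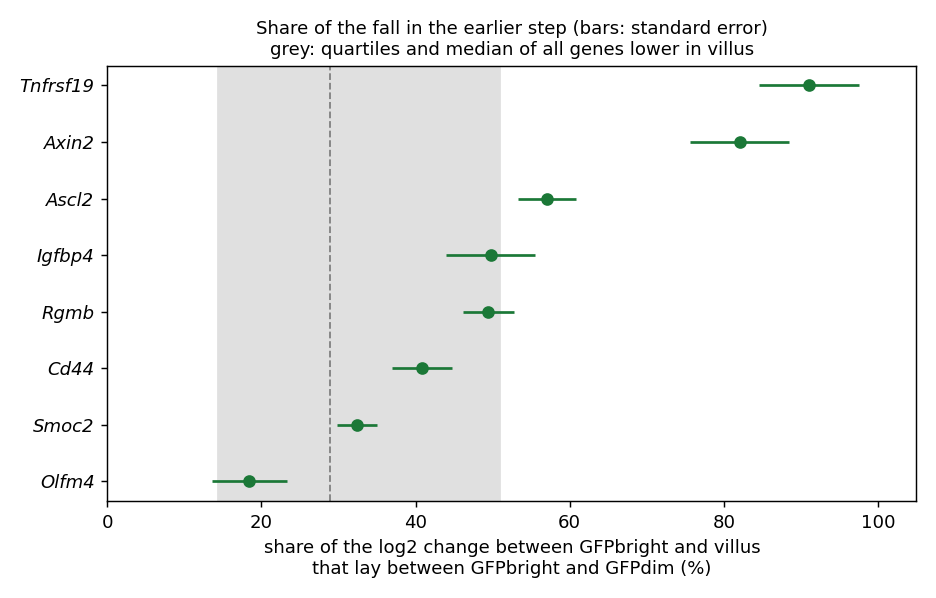
Share of the log2 change between GFPbright and villus that lay between GFPbright and GFPdim (horizontal axis, %), for 8 genes with the standard error, against the median (28.9%, dashed) and the quartiles (14.4% to 50.9%, grey) of 4493 genes lower in the villus. The shares run from 18.4% for Olfm4 up to 91.1% for Tnfrsf19.

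The GFPdim arrays differed among themselves. GFPdim 2, with the most Lgr5, was also the highest of the 3 for 6 of the 10 genes, Ascl2, Smoc2, Tnfrsf19, Rgmb, Sp5 and Axin2, whereas Olfm4, Igfbp4 and Cd44 were highest in GFPdim 1 and Nkd1 in GFPdim 3. Of all genes 41.9% were highest in GFPdim 2, and 57.7% of the 2947 genes whose GFPdim arrays all lay below GFPbright, so the share of members is near that of other genes that were lower in GFPdim cells. Summed markers of secretory cells and enterocytes were higher in GFPdim than in GFPbright cells, with no overlap. The 5 goblet cell markers summed to 19358.8 to 22949.5 in GFPdim and 1417.6 to 2557.5 in GFPbright cells, the 3 Paneth cell markers to 5024.8 to 9239.9 in GFPdim and 711.4 to 1438.2 in GFPbright cells, and the 6 enteroendocrine markers to 4270.0 to 5359.4 in GFPdim and 147.9 to 285.7 in GFPbright cells. The 5 enterocyte markers summed to 6343.3 to 9080.7 in GFPdim and 1296.4 to 2287.5 in GFPbright cells. Their part in the fall of the crypt base genes was not tested.

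Promoter windows of RefSeq (GRCm38.p6) were matched for 9 of the 10 genes, with 12 windows in all, and Smoc2 was not matched. The 250 bases before each start were searched on both strands for core words of TCF/LEF sites, which were CTTTGAA, its variant CTTTGAT, the word CTTTGTA and likewise its variant CTTTGTT. Matches on either strand count once each. At least 1 match lay in 14.8% of 32851 windows of all genes and 2 or more in 1.43%. Of the 12 windows of the crypt base genes 2 had a match, a share near that of all windows. Sp5 had 2 matches, at -222 and -104 from the start, and the second window of Tnfrsf19 had 1, at -202. The first window of Tnfrsf19 (chr14:61046856-61047105, minus strand) had 0 and is not shown. Shown are the 3 genes with the more negative earlier step, of which Sp5 rose again at the later one. They are Sp5 (chr2:70474673-70474922, plus strand), Tnfrsf19 (chr14:61037988-61038237, minus strand) and Axin2 (chr11:108920099-108920348, plus strand), read 5′ to 3′ on the strand of the gene, with matches in capitals.
Sp5: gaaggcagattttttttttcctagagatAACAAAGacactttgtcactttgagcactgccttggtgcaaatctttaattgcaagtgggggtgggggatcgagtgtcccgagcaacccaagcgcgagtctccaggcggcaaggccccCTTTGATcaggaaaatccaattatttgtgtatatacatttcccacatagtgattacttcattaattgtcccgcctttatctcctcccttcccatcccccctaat
Tnfrsf19: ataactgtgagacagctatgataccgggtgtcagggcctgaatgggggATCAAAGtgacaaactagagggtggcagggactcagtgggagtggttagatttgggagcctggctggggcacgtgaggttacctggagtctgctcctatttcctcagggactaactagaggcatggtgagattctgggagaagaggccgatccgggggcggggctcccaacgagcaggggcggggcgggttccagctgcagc
Axin2: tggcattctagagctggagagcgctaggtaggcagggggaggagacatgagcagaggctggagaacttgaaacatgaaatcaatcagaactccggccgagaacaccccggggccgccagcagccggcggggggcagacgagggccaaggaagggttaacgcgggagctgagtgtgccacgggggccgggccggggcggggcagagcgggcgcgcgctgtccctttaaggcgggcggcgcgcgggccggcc
A match is only a run of letters in this window, and no match leaves sites elsewhere untouched by the search.

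Hair follicle GFPdim cells shared a part of this set. Against GFPbright intestinal cells 7 of the 10 genes were lower and 2 higher in hair follicle cells, where 29.1% of all genes were lower and 19.4% higher, with a median log2 difference of -2.18 against -0.06 over all genes. These comparisons use the same GFPbright arrays as those of GFPdim and villus. Lgr5 itself averaged 568.5 ± 107.1 in hair follicle and 649.8 ± 118.0 in GFPbright cells (SD), with overlapping arrays and a log2 difference of -0.19 (95% interval -1.12 to 0.74).

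Cd44 was higher in hair follicle cells than in intestinal stem cells, and Igfbp4 did not pass the test in either direction. Cd44 read 1704.5, 1842.1 and 1709.1 in hair follicle cells, against 656.5, 329.4, 567.8 and 535.2 in GFPbright cells, so that every hair follicle array was above every GFPbright array. It was 3.46-fold higher in hair follicle cells (log2 difference 1.79, SE 0.22, adjusted p = 8.13e-06, limma), and its other 2 detected probe sets were higher too. Igfbp4 read 644.8, 1329.1 and 951.3 in hair follicle cells, against 764.8, 546.7, 685.1 and 859.0 in GFPbright cells. Here the groups overlapped, and the log2 difference was 0.41 with a 95% interval of -0.44 to 1.25 (adjusted p = 0.452). None of the 5 other probe sets of Igfbp4 passed the test either, with differences of -0.48 to 0.47. Nkd1 read 11.2, 11.7 and 11.6 in hair follicle cells, against 9.4, 7.2, 8.4 and 7.6 in GFPbright cells. It was 1.42-fold higher (adjusted p = 0.00229), close to background, and the call was lost in the mean of its probe sets (0.13, adjusted p = 0.348).

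Tnfrsf19, Rgmb and Smoc2 were present in hair follicle cells at a lower level. Tnfrsf19 read 52.5, 89.1 and 53.7 in hair follicle cells, against 130.1 to 284.4 in GFPbright cells, 2.68-fold lower (log2 difference -1.42, SE 0.27, adjusted p = 0.000413, limma). Rgmb read 164.6, 111.6 and 146.6 in hair follicle cells, against 352.7 to 503.0 in GFPbright cells, 3.05-fold lower (-1.61, SE 0.16, adjusted p = 9.04e-07). The groups of both genes did not overlap. Smoc2 read 151.4, 147.8 and 161.5 in hair follicle cells, a narrow range, against 900.3 to 1109.4 in GFPbright cells, 6.73-fold lower (-2.75, SE 0.18, adjusted p = 1.07e-08). Axin2, the brake that reports Wnt signals in many tissues, read 70.3, 74.0 and 95 in hair follicle cells, against 526.3 to 628.2 in GFPbright cells, 7.46-fold lower (-2.90, SE 0.19, adjusted p = 1.11e-08).

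Both transcription factors and Olfm4 were at or near background in hair follicle cells. Sp5 read 9.0, 10.2 and 10 there, against 111.2 to 172.9 in GFPbright cells, 14.2-fold lower (log2 difference -3.82, SE 0.16, adjusted p = 1.07e-10, limma). Ascl2 read 9.8, 7.8 and 12.9 in hair follicle cells, against 373.8 to 524.6 in GFPbright cells, 45.1-fold lower (-5.50, SE 0.25, adjusted p = 2.26e-10). Olfm4 read 4.2, 5.7 and 5.0, under background on all hair follicle arrays, against 5182.7 to 6924.1 in GFPbright cells. That is at least 818-fold lower, taken against the background level (adjusted p = 8.18e-12). None of these 3 genes overlapped between the groups.

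**Figure D4:**
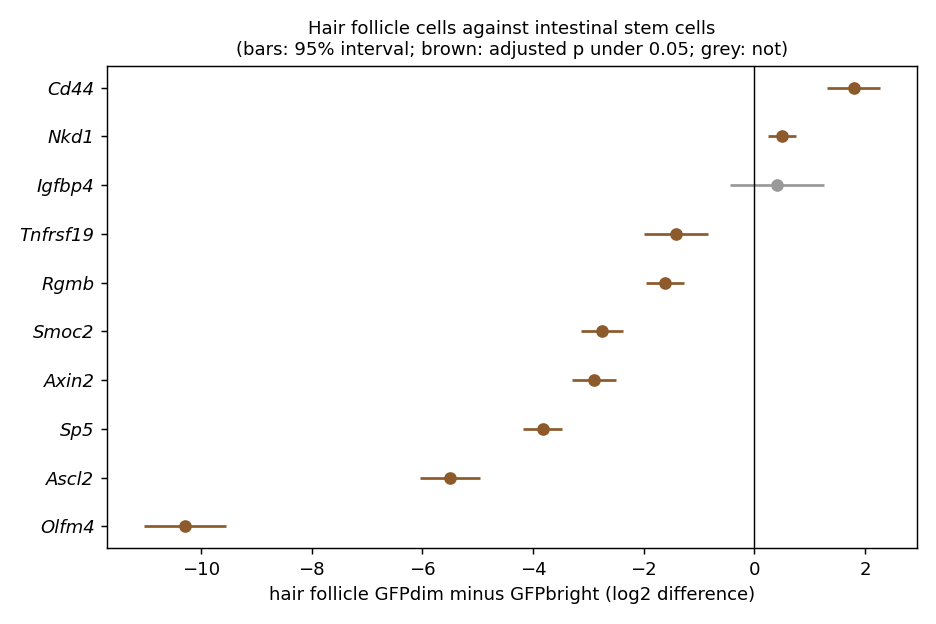
Log2 difference of hair follicle GFPdim minus GFPbright intestinal cells (horizontal axis) for the 10 genes, with 95% intervals, in brown where the adjusted p was under 0.05 and in grey where it was not. Cd44 (1.79) and Nkd1 (0.50) lie to the right of 0, the interval of Igfbp4 (-0.44 to 1.25) crosses it, and Olfm4, whose hair follicle arrays are under background, lies farthest to the left.

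Against the other intestinal stages the calls ran both ways. Against intestinal GFPdim cells 4 of the 10 genes were lower in hair follicle cells (Ascl2, Olfm4, Smoc2 and Sp5) and 5 higher (Cd44, Igfbp4, Nkd1, Rgmb and Tnfrsf19), where 25.2% of all genes were lower and 21.0% higher. The call for Rgmb was lost without hair follicle 1, without GFPdim 3 and with only both groups in the fit (adjusted p = 0.0503). It was also lost in the mean of its probe sets (0.07, adjusted p = 0.742). Without the 3 arrays with contradicted labels, which leaves only GFPdim 1 of the intestine, the difference was 0.50 for Rgmb and -0.41 for Smoc2. Axin2 came close to the threshold (-0.51, adjusted p = 0.0512, or 0.0409 with the random replicate block), while its other probe set gave 0.15. Against villus cells 2 genes were lower in hair follicle cells (Olfm4 and Sp5) and 6 higher (Cd44, Igfbp4, Nkd1, Rgmb, Smoc2 and Tnfrsf19), where 27.4% of all genes were lower and 26.9% higher. Igfbp4 was 94.8-fold and Cd44 120.1-fold higher in hair follicle than in villus cells, the largest differences of the set in that comparison. The size for Igfbp4 depended on the probe set. Its 5 others were all higher too, with log2 differences of 0.77 to 6.17. For Rgmb the 3 other probe sets gave only 0.44 to 0.68, and 1 of them passed the test. Ascl2 (0.61, adjusted p = 0.0709) passed as higher without GFPdim 1 (0.0291), after quantile normalization (0.0316) and in the mean of its probe sets (0.00599). Axin2 in hair follicle cells lay within the villus range (log2 difference 0.01, 95% interval -0.43 to 0.44).

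Some markers of other cells stood above background in the hair follicle samples. Summed intensities of 7 fibroblast markers were 77.0 to 119.3 in hair follicle and 37.2 to 44.7 in GFPbright cells. Of these, 2 were above background on every hair follicle array, and Col1a2, Lum, Pdgfra and Pdgfrb were under it on every one. The 5 melanocyte markers summed to 148.0 to 654.1 in hair follicle and 40.0 to 60.5 in GFPbright cells. On every hair follicle array 3 of the 5 were above background. Leukocyte markers summed to 42.9 to 107.2 in hair follicle and 59.8 to 652.0 in GFPbright cells. Of the 7 measured, 1 was above background on every hair follicle array, and Ptprc, Cd3g, Cd8a and Cd52 were under it on every one. The part of these cells in the hair follicle levels, that of Cd44 included, was not tested.

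Other genes of the pathway were read from 3 lists. The lists were chosen with earlier results of these data known, so their counts beside all genes are descriptive. Of 18 measured of 20 other Wnt target and feedback genes, 7 were lower and 0 higher in GFPdim than in GFPbright cells, with a median log2 difference of -0.14, against 10.4% lower, 6.32% higher and a median of -0.04 over all genes. They were Lgr5, Rnf43, Znrf3, Apcdd1, Sox9, Ephb3 and Myc. Among these, the call of Lgr5 follows from the gate, since the cells were sorted on its reporter. Rnf43, a ubiquitin ligase that removes Frizzled receptors, averaged 47.7 ± 24.0 in GFPdim and 204.7 ± 32.9 in GFPbright cells (SD, n = 3 and n = 4), 4.59-fold lower, and like Axin2 it fell more at the earlier step (2.03, adjusted p = 0.00406, limma). Sox9, a transcription factor of crypt progenitors and Paneth cells, averaged 76.9 ± 10.8 in GFPdim and 237.4 ± 43.9 in GFPbright cells, 3.07-fold lower, and Ephb3, a receptor that keeps cells in the crypt, 63.3 ± 10.6 in GFPdim and 181.0 ± 30.8 in GFPbright cells, 2.86-fold lower. In hair follicle cells 3 of the 18 were lower and 8 higher than in GFPbright cells (median 0.14), where 29.1% of all genes were lower and 19.4% higher (median -0.06), with Sox9 among the higher ones at 907.2 ± 259.7 in hair follicle cells against 237.4 ± 43.9 in GFPbright cells.

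All 14 measured of 16 other crypt base stem cell genes were lower in GFPdim than in GFPbright cells. Their median was -1.85 (10.4% and -0.04 over all genes). In the villus 13 of the 14 were lower than in GFPbright cells, with a median of -4.35 (26.3% and 0.02 over all genes). The list names genes of the crypt base, so these counts are no independent test. Slc14a1, a urea transporter, was 10.5-fold, the RNA-binding protein Msi1 8.06-fold, the adaptor Sorbs2 6.87-fold and the phosphatase Ptpro 5.83-fold lower in GFPdim cells (adjusted p = 7.35e-05, 3.63e-08, 6.55e-07 and 5.21e-07, limma). The same list had 13 lower and 0 higher in hair follicle against GFPbright cells, with a median of -3.36 (29.1% lower, 19.4% higher and -0.06 over all genes). Of 20 genes that carry the Wnt signal, 5 were lower and 0 higher in GFPdim than in GFPbright cells, with a median of -0.29 (10.4%, 6.32% and -0.04 over all genes). The receptor Fzd7 averaged 71.3 ± 23.9 in GFPdim and 240.6 ± 16.9 in GFPbright cells, a log2 difference of -1.80 (adjusted p = 1.33e-05). The R-spondin receptor Lgr4 (-0.69, adjusted p = 0.00975) and the kinase Gsk3b (-0.56, adjusted p = 0.0335) were lower too. Dvl2, a Dishevelled protein, was under background on every GFPdim array and at least 1.47-fold lower (adjusted p = 0.00846). Hair follicle cells had 2 of these 20 lower and 7 higher than GFPbright cells (median 0.25), where 29.1% of all genes were lower and 19.4% higher (median -0.06), with Fzd7 at 843.0 ± 83.7 in hair follicle cells against 240.6 ± 16.9 in GFPbright cells.

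The genes whose log2 profile followed the mean of the 10 most closely over the 10 intestinal arrays were Ppp1r26 (Pearson's r = 0.995), Nav1 (0.992), Msi1 (0.992), Pls3 (0.991), Afap1 (0.991), Hunk (0.990), Clca3a2 (0.990), Car12 (0.988), Txndc16 (0.987) and Snx10 (0.987). The arrays share 3 groups, so r mostly describes the order of the groups. Over all 13 arrays the gene most like each member was Slc14a1 for Ascl2 (r = 0.986), Cldn2 for Olfm4 (0.989), Zfp932 for Smoc2 (0.993), Prkd3 for Igfbp4 (0.986), Sorcs2 for Tnfrsf19 (0.964), Spidr for Rgmb (0.989), Ccdc82 for Sp5 (0.979), Ripor2 for Axin2 (0.982), Ift122 for Nkd1 (0.980) and Mcc for Cd44 (0.994). Ccdc82, the gene most like Sp5, had the same low point, with 51.9, 76.4 and 69.8 in GFPdim cells, against 139.7, 129.4, 121.9 and 114.5 in GFPbright cells and 142.8, 142.0 and 124.3 in the villus.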

How the data were processed

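RNA isolated after FACS, by the methods, was hybridised to 13 arrays. The deposited values are intensities on a linear scale, for which the authors ran RMA-sketch in Affymetrix Power Tools (version not given in the sources used here), correcting background, normalizing across arrays and summarising each probe set. Here log2 was taken and nothing else was normalized. Of 45141 probe sets, 28898 name a single gene in the platform annotation, 551 name several and 15692 are unnamed. The brightest single-gene probe set stood for each of 17097 genes. The 4 groups were fitted together with limma (3.58.1, R 4.3.3), with Benjamini-Hochberg adjustment across the 17097 genes. A gene was called at an adjusted p under 0.05. Where every array of the dimmer group was under background, a fold is "at least", taken against the background level. The fit was tested on simulated data. The members and lists were chosen with earlier results of these data known. Named are all 10 members, up to 4 called genes per list and the genes most alike. The methods' t-test was run as an alternative. GFPbright and GFPdim replicates 1, 2 and 3 share a code in their titles, read here as the sort (hair follicle 2 has the code of replicate 2). The residuals of these GFPbright and GFPdim pairs correlated at 0.291, 0.451 and 0.320, and those of pairs with unlike codes at -0.3 to -0.022. Residuals are centred within a group, which by itself sets like and unlike pairs apart in sign. The replicate numbers were taken to pair the arrays. The main fit did not use this pairing, and fits with the sort as a block were run as alternatives. Beyond the title codes and the design text nothing says that samples of a group came from separate mice, and p-values measure the spread between these samples. The number of arrays limits the precision. Promoter windows came from RefSeq (GRCm38.p6). Plots were made in Python 3.11.15 (matplotlib 3.10.9).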

Additional observations from a re-analysis of the deposited data

How the results depend on the processing

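Each of 70 log2 differences, 10 genes in 7 comparisons, was recomputed under 10 other settings and without each of 13 arrays. Under the other settings 669 kept direction and side of the threshold, 8 lost and 13 gained a call, and 10 changed sign. Without 1 array these numbers were 881, 7, 11 and 11. Every count of members called stayed within 1.5 times its value. With sort as a fixed replicate block 9 members and 3168 genes were called in GFPdim against GFPbright cells, with a random replicate block 10 members and 3406 genes (Nkd1 then passed, adjusted p = 0.0333), and Axin2 passed in hair follicle against GFPdim cells (adjusted p = 0.0409). No other call of a member changed with the block. By the methods' t-test 7141 genes differed between villus and GFPbright cells at their threshold and 8058 after Benjamini-Hochberg adjustment, with 9 members lower in both. Testing every probe set raised the features tested, by construction, and the calls to 11025 in villus against GFPdim, 13064 in villus against GFPbright, 12812 in hair follicle against GFPbright, 11997 in hair follicle against GFPdim and 14552 in hair follicle against villus cells. The highest receptor probe set, in place of the 95th percentile, put background at 13.9.

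The sign turned for these 5 genes, in differences that were near 0 as reported. The later step of Nkd1 was 0.067 in the mean of its probe sets. Sp5 in villus against GFPbright cells was -0.017 without the 3 arrays with contradicted labels, and -0.047 to 0.213 without 1 array. The difference of steps for Igfbp4 was 1.06 in the mean of probe sets, 0.94 with 16 added and 0.093 after quantile normalization (-0.57 to 0.48 without 1 array), and for Rgmb 1.17, 0.39 and 0.23 (-0.28 to 0.13). Axin2 in hair follicle against villus cells was -0.061 in the mean of probe sets and -0.005 with a random replicate block (-0.24 to 0.16 without 1 array). The cause was not tested. Intensities near background, as for Nkd1, limit what can be compared.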
